A study of Mus musculus with 10 samples.

Results

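The nuclear genes of the subunits of respiratory complex I were followed in mouse lung tumours of KP mice and of KPG1 mice, which carry floxed Glut1 on both alleles. The members are the rows of the count table whose gene symbol is Ndufa, Ndufb, Ndufc, Ndufs or Ndufv followed by digits only, which are 36 of 39017 rows. By the roles used here, 7 encode core subunits, 9 encode accessory subunits of the matrix arm, 9 belong to the proximal part of the membrane arm, 10 belong to its distal part, and Ndufa4 carries a complex I name although its protein is found in complex IV. Ndufb1 had no row under that symbol and was not analysed here.

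Polyadenylated RNA was sequenced from lung tumours of C57BL/6 mice in which Ad5CC10-Cre, an adenovirus with Cre under a promoter of CC10-positive airway cells, had started the tumours. KP control mice (5 libraries) carried K-rasLSL-G12D/WT and p53Fl/Fl, and KPG1 mice (5 libraries, labelled Glut1-KO) carried Glut1Fl/Fl as well. The genotype label of the controls is heterozygous fl/wt, while the design text calls them wild type for Glut1. All tumours were taken at 20 weeks and 1 day after initiation, dissociated and depleted of CD45-positive immune cells with magnetic beads, so that every library is a mixed CD45-negative fraction. The age of the animals is not in the labels. All 5 controls were male, as were Glut1-KO replicates 4 and 5, whereas Glut1-KO replicates 1, 2 and 3 were female. No female control was sequenced among these libraries. A number in the deposited names could identify the mouse, which the labels leave unstated. The 5 controls carry 2 such numbers and the Glut1-KO libraries 4. P-values therefore measure the spread between libraries, which may in part be technical.

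Complex I, the NADH dehydrogenase of the inner mitochondrial membrane, takes electrons from NADH through a flavin and a chain of iron-sulfur clusters to ubiquinone and pumps protons as it does so. Its matrix arm holds the redox centres, its membrane arm holds the proton pumps, and the accessory subunits surround and stabilise both. Part of the membrane arm is encoded by mitochondrial DNA, so the complex is built from transcripts of both genomes. In tumour cells the complex is one of the entry points of oxidative phosphorylation, the route to ATP beside glycolysis, and glycolysis depends on glucose that transporters such as Glut1 bring in.

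Library totals were 35.3 to 49.8 M counts, and levels are given as counts per M after TMM scaling (CPM), as mean ± SD over the 5 libraries of each group. All 36 members passed the filter on low counts, which kept 15922 genes, and a member had between 605 and 9141 counts in a library. The 7 mitochondrially encoded complex I genes were listed at 0 counts in every library, as were all 37 mitochondrial symbols, and were not analysed here. Slc2a1, the gene of Glut1, measured 118, 86.7, 92.6, 103 and 73.2 CPM in control replicates 1 to 5 and 60.3, 42.5, 34.6, 92.4 and 103 CPM in Glut1-KO replicates 1 to 5. The 3 female Glut1-KO libraries lay below every control, and both male libraries labelled Glut1-KO lay within the control range. Over all libraries Slc2a1 differed by -0.62 on the log2 scale (SE 0.29, limma adjusted p = 0.658). The counts cover the whole gene and do not show a deleted exon. Sex and the level of Slc2a1 cannot be told apart within the Glut1-KO group, and the group comparison below is therefore followed by the male and the female libraries taken separately. Markers of the epithelium (Epcam, Sftpc and 7 others) summed to 23341 to 58892 CPM. The 11 leukocyte markers summed to 307 to 462 CPM in controls and 336 to 584 CPM in Glut1-KO libraries. Among them Ptprc, the gene of CD45, was at 2.76 ± 0.451 CPM in controls and 7.92 ± 2.19 CPM in Glut1-KO libraries (SD, n = 5 each). For Ptprc all 5 Glut1-KO libraries lay above all 5 controls, with a log2 fold change of 1.47, a limma adjusted p of 0.230 and a DESeq2 adjusted p of 1.96e-06. In bulk RNA, fewer cells of a type and less RNA per cell cannot be told apart.

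RefSeq promoter windows of GRCm38.p6, 250 bases before to 50 bases after the annotated start, were matched by symbol for 32 of the 36 members (34 windows). Each was searched on both strands for GCGCANGCGC (NRF1), CCGGAAG (ETS factors) and ATGGCGG (YY1), motifs of factors known to bind promoters of respiratory genes. The NRF1 letters occurred in 7 of 32 members (21.9%) against 4.60% of all 32851 promoter windows. The YY1 letters, which contain the letters of a start codon, occurred in 8 members (25.0%) against 4.05% of all windows. The ETS letters occurred in 4 members (12.5%) against 8.86%. At least 1 of the 3 occurred in 17 members (53.1%) against 15.5% of all windows, and matches to different motifs did not overlap in the members. By gene, with a gene counted once whatever its number of windows, the shares over 27025 genes were 5.19%, 4.69%, 9.93% and 17.3% in the same order of NRF1, YY1, ETS and any. For Ndufa1, Ndufa9, Ndufa11, Ndufb2 and Ndufb8 the bases that follow the annotated start were not found in a GENCODE M21 transcript of the gene. Of these 5, 3 are among the 17 (Ndufa11 for NRF1, Ndufa1 and Ndufa9 for YY1). For the other windows those bases lie in a transcript, which does not show that a transcript starts there. These are counts of letters in a window, not of bound sites.

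The windows of Ndufb5, Ndufa5 and Ndufb3 are printed because these were the 3 members whose Glut1-KO and control libraries did not overlap. Each runs 5′ to 3′ along the strand of the gene from 250 bases before the start to 30 bases after it, in lower case, with matched motif letters in capitals. Ndufb5 is at chr3:32736813-32737092 (plus strand) and holds the YY1 letters 20 bases into the transcript. The first of 2 Ndufa5 windows is at chr6:24527497-24527776 (minus strand). It holds the NRF1 letters at position -190 and the YY1 letters at position -20 from the start. The second, at chr6:24527661-24527940 and not printed, holds the NRF1 letters at position -26 and neither of the other motifs. The motifs and positions given for Ndufa5 thus depend on which annotated start is used. Ndufb3 is at chr1:58586147-58586426 (plus strand) and holds none of the 3 motifs, which says only that these letters are not in the window.
Ndufb5: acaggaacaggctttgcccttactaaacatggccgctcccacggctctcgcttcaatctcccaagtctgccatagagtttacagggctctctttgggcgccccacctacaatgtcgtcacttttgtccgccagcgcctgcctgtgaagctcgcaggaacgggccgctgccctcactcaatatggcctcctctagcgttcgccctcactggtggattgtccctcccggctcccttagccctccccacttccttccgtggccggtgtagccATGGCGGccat
Ndufa5: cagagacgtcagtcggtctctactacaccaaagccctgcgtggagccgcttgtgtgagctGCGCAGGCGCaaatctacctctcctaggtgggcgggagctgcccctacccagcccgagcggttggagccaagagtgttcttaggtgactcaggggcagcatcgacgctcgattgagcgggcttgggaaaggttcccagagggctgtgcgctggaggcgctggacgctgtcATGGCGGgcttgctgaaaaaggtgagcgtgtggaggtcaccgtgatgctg
Ndufb3: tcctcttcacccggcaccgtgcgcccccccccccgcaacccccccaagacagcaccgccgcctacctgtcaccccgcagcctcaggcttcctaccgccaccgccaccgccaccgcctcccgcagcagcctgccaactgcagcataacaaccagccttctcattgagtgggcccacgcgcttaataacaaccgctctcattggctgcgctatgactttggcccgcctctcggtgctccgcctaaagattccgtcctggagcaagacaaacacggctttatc

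The comparison of the 5 Glut1-KO with the 5 control libraries asks whether the transcripts of complex I subunits differed between KPG1 and control tumours. Of the 36 members, 31 had a positive and 5 a negative log2 fold change, and 0 passed the threshold of 0.05 for the limma p adjusted over all genes, as did 0.0% of the 15922 genes tested. The median log2 fold change of the members was 0.18, against -0.005 over all genes tested, of which 49.3% were positive. At an unadjusted p under 0.05, 6 members were higher and 0 were lower, against 3.66% and 4.02% of all genes. With single libraries left out, and both directions counted here and in the counts that follow, the 6 became 3 without control replicate 4, control replicate 5 or Glut1-KO replicate 3, 4 without control replicate 3 or Glut1-KO replicate 5, and 10 without Glut1-KO replicate 2. The share of all genes at that p with libraries left out is not given here, nor for the settings of the later comparisons. Whether all genes gained or lost calls alike cannot be read from these counts. In the main fit the smallest adjusted p of a member was 0.436. The edgeR quasi-likelihood test gave 0 members too, and the DESeq2 Wald test gave 2, Ndufb5 and Ndufa5, against 0.691% of all genes called higher by it.

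**Figure D1:**
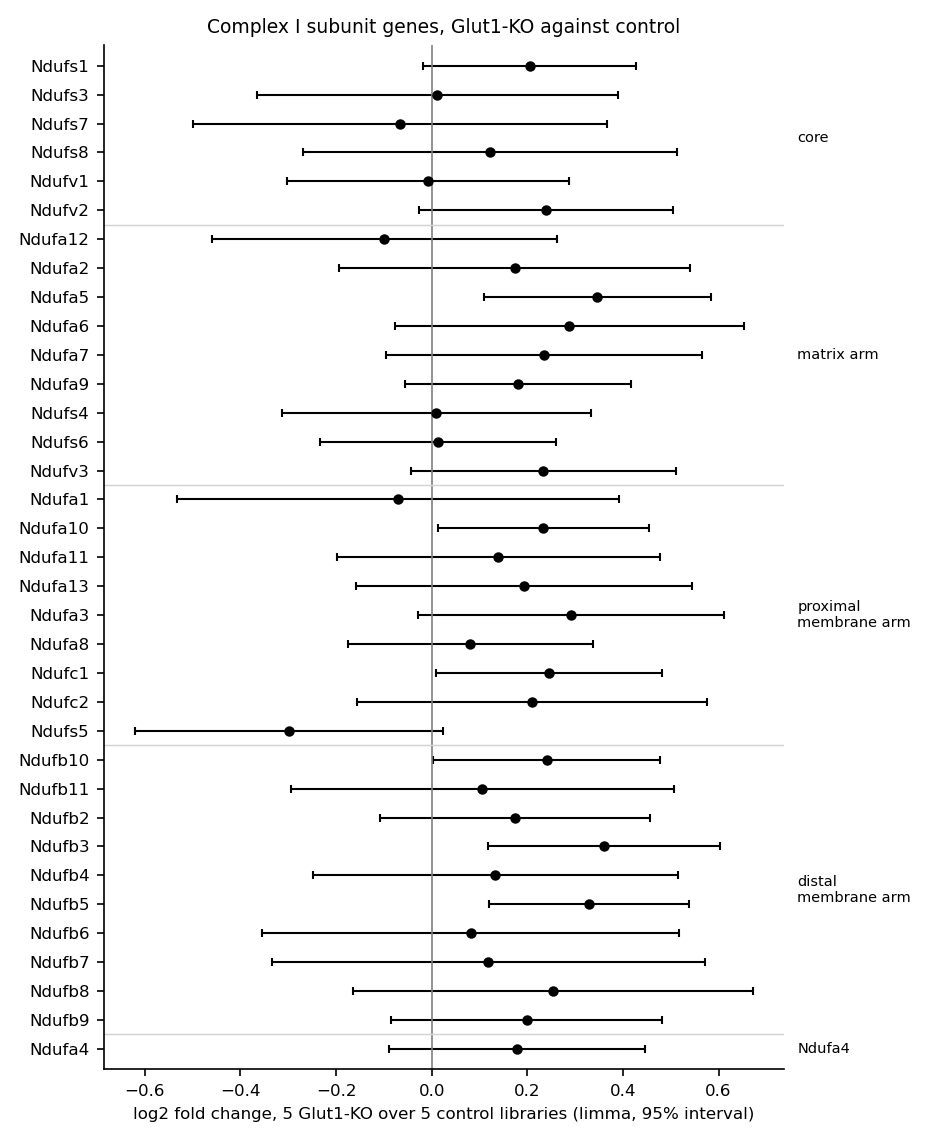
Log2 fold change (horizontal axis, log2 scale) of 35 complex I subunit genes, 5 Glut1-KO over 5 control libraries, from limma. Points are estimates and bars are 95% intervals, genes are grouped by role, and 30 points lie right of 0 with most intervals crossing it.

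Summed over all members, the level was 2069, 1902, 2074, 1948 and 1961 CPM in control replicates 1 to 5. It was 2288, 1957, 2095, 2387 and 2506 CPM in Glut1-KO replicates 1 to 5. Both male Glut1-KO libraries and female replicates 1 and 3 exceeded every control, while female replicate 2 lay within the control range. The ratio of the group means was 1.13, and it was 1.23 for the 2 male and 1.06 for the 3 female Glut1-KO libraries.

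**Figure D2:**
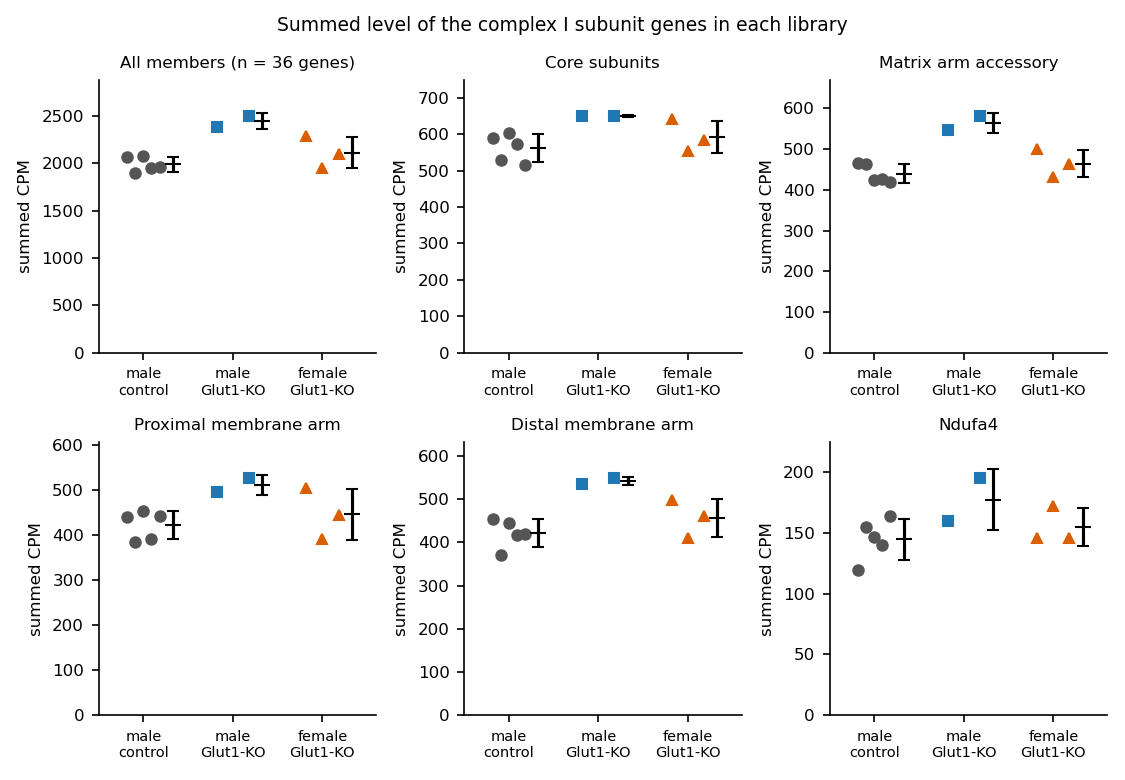
Summed CPM (vertical axis, from 0) of all 36 members and of each role, 1 point per library, for 5 male control, 2 male Glut1-KO and 3 female Glut1-KO libraries, with mean and SD beside the points. For all members the male Glut1-KO libraries stand at 2387 and 2506 CPM, above the control range of 1902 to 2074 CPM.

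The core subunits carry the catalysis and are the ones conserved from bacteria. Of these 7, 5 were higher and 2 lower in the Glut1-KO libraries, against 49.3% of all genes positive, with a median of 0.12. At an unadjusted p under 0.05, 0 were higher and 0 lower, against 3.66% and 4.02% of all genes. Ndufs1, which holds iron-sulfur clusters of the electron input module, measured 108, 86.9, 104, 101 and 85.2 CPM in the controls and 103, 119.7, 111, 115 and 109 CPM in the Glut1-KO libraries. All but Glut1-KO replicate 1 exceeded every control. Its log2 fold change was 0.20 (SE 0.10, adjusted p = 0.677). Ndufv2, the partner of the flavin-binding subunit, measured 77.2, 81.1, 65.2, 62.8 and 64.9 CPM in the controls and 98.9, 71.2, 79.1, 79.0 and 87.0 CPM in the Glut1-KO libraries. The groups overlapped, and the log2 fold change was 0.24 (SE 0.12, adjusted p = 0.681).

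Of the other core subunits, Ndufs8, an iron-sulfur subunit near the ubiquinone site, averaged 51.5 ± 10.5 CPM in controls and 55.9 ± 10.7 CPM in Glut1-KO libraries (log2 fold change 0.12). Ndufv1, which binds the flavin and NADH, averaged 97.6 ± 12.2 and 97.5 ± 14.97 CPM (-0.01). Neither had an unadjusted p under 0.05. Ndufs3, a subunit of the ubiquinone-reducing module, averaged 38.2 ± 10.7 and 37.6 ± 1.61 CPM with a log2 fold change of 0.01. Its controls ran from 28.9 CPM in replicate 4 to 53.9 CPM in replicate 5, the widest relative spread of any member (coefficient of variation 28.1%, against a median of 11.2% over the members). Ndufs7, which carries the last iron-sulfur cluster before ubiquinone, averaged 38.0 ± 3.21 and 37.7 ± 11.2 CPM (-0.07). Its Glut1-KO libraries spread far more than its controls, from 23.4 CPM in female replicate 2 to 53.01 CPM in male replicate 5.

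Among the 9 accessory subunits of the matrix arm, 8 were higher and 1 lower, against 49.3% of all genes positive, with a median of 0.18 and 1 higher at an unadjusted p under 0.05, against 3.66% of all genes. That member was Ndufa5, a small subunit of the module that reduces ubiquinone. It measured 23.2, 24.2, 24.2, 22.2 and 25.6 CPM in the controls and 26.3, 31.4, 30.9, 34.6 and 29.5 CPM in the Glut1-KO libraries. Every Glut1-KO library lay above every control. The log2 fold change was 0.35 (95% interval 0.11 to 0.58, 1.27-fold), the limma adjusted p was 0.462 and the DESeq2 adjusted p was 0.0468. Ndufa12, an accessory subunit added late in assembly, was the lower one (-0.10), with 0.13 in the male and -0.24 in the female comparison below.

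The proximal part of the membrane arm gave 7 higher and 2 lower of 9 members, against 49.3% of all genes positive, with a median of 0.19. Ndufa10 and Ndufc1, 2 of the 9, were higher at an unadjusted p under 0.05, against 3.66% of all genes. Ndufa10, a subunit related to nucleoside kinases, measured 90.2, 76.5, 104, 81.1 and 86.6 CPM in the controls and 101, 103, 107, 99.6 and 101 CPM in the Glut1-KO libraries. The Glut1-KO libraries clustered tightly, but control replicate 3 exceeded 4 of them. The log2 fold change was 0.23 (SE 0.10, adjusted p = 0.633). Ndufc1, a small membrane subunit, measured 25.8, 22.5, 22.6, 21.6 and 23.3 CPM in the controls and 24.7, 25.5, 28.6, 28.5 and 30.1 CPM in the Glut1-KO libraries. Only control replicate 1 reached into the Glut1-KO range, and the log2 fold change was 0.25 (SE 0.11, adjusted p = 0.644). Ndufa3, another small membrane subunit, measured 49.0, 32.3, 46.3, 40.3 and 49.5 CPM in the controls and 56.1, 42.8, 51.8, 59.8 and 53.4 CPM in the Glut1-KO libraries. Glut1-KO replicate 2 alone fell within the control range, and the log2 fold change was 0.29 (SE 0.15, adjusted p = 0.678). Without control replicate 2 it was 0.18.

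Ndufs5, a subunit on the intermembrane face, was the member with the most negative difference. It measured 32.3, 23.9, 31.2, 28.2 and 30.3 CPM in the controls and 27.4, 21.5, 18.5, 28.2 and 24.0 CPM in the Glut1-KO libraries. Glut1-KO replicates 2 and 3 lay below every control, and the others overlapped with them. The log2 fold change was -0.30 (95% interval -0.62 to 0.02, adjusted p = 0.677). Ndufa1, a small subunit encoded on the X chromosome, measured 35.5, 21.5, 33.05, 29.1 and 30.7 CPM in the controls and 36.4, 21.2, 20.4, 30.4 and 36.2 CPM in the Glut1-KO libraries. Low and high libraries occurred in both groups (-0.07, SE 0.21, adjusted p = 0.954).

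All 10 members of the distal part of the membrane arm had positive log2 fold changes, from 0.08 to 0.36 with a median of 0.19, and 3 were higher at an unadjusted p under 0.05, beside 49.3% of all genes positive and 3.66% higher at that p. Ndufb5, a single-pass accessory subunit, measured 61.7, 51.8, 57.8, 54.5 and 57.9 CPM in the controls and 64.9, 67.1, 77.8, 75.6 and 71.0 CPM in the Glut1-KO libraries. The groups did not overlap. The log2 fold change was 0.33 (95% interval 0.12 to 0.54, 1.26-fold), the limma adjusted p was 0.436 and the DESeq2 adjusted p was 0.0254. Exons of Ndufb5 overlap those of Mrpl47 on the opposite strand over up to 530 bases. The strand setting of the counting was not given in the sources used here, so reads of this stretch could not be assigned with certainty. Exons of other members share shorter stretches with other genes. On the opposite strand these include Ndufs1 with Ino80dos (320 bases), Ndufb2 with Braf (146) and Ndufb11 with Rbm10 (117). Ndufb8 shares 134 bases with Gm20538 on its own strand. Mrpl47, a mitochondrial ribosomal protein gene, averaged 19.9 ± 3.21 CPM in controls and 22.9 ± 5.24 CPM in Glut1-KO libraries.

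Ndufb3, another distal subunit, measured 38.3, 28.3, 38.3, 33.1 and 33.2 CPM in the controls and 41.5, 41.9, 46.1, 43.9 and 44.5 CPM in the Glut1-KO libraries. Again no control reached the lowest Glut1-KO library. The log2 fold change was 0.36 (95% interval 0.12 to 0.60, 1.28-fold), the largest of the members, with a limma adjusted p of 0.449 and a DESeq2 adjusted p of 0.0772. Ndufb10, a disulfide-bonded subunit of the intermembrane side, measured 56.1, 52.2, 52.5, 48.2 and 51.4 CPM in the controls and 69.0, 52.9, 69.7, 55.9 and 61.3 CPM in the Glut1-KO libraries. Glut1-KO replicates 2 and 4 fell within the control range (0.24, SE 0.11, adjusted p = 0.644). Ndufb11, encoded on the X chromosome, measured 79.0, 59.8, 86.5, 86.1 and 89.5 CPM in the controls and 103, 61.2, 73.3, 86.7 and 113 CPM in the Glut1-KO libraries. The groups overlapped widely (0.11, SE 0.18, adjusted p = 0.907). The value was 0.0035 without control replicate 2 and 0.23 without Glut1-KO replicate 2.

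Ndufb5, Ndufb3 and Ndufa5 were the 3 members with all 5 Glut1-KO libraries above all 5 controls, a pattern found in 0.798% of all genes tested. In the reverse pattern there were 0 members, against 1.06% of all genes. None of the 3 passed the limma threshold after adjustment.

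**Figure D3:**
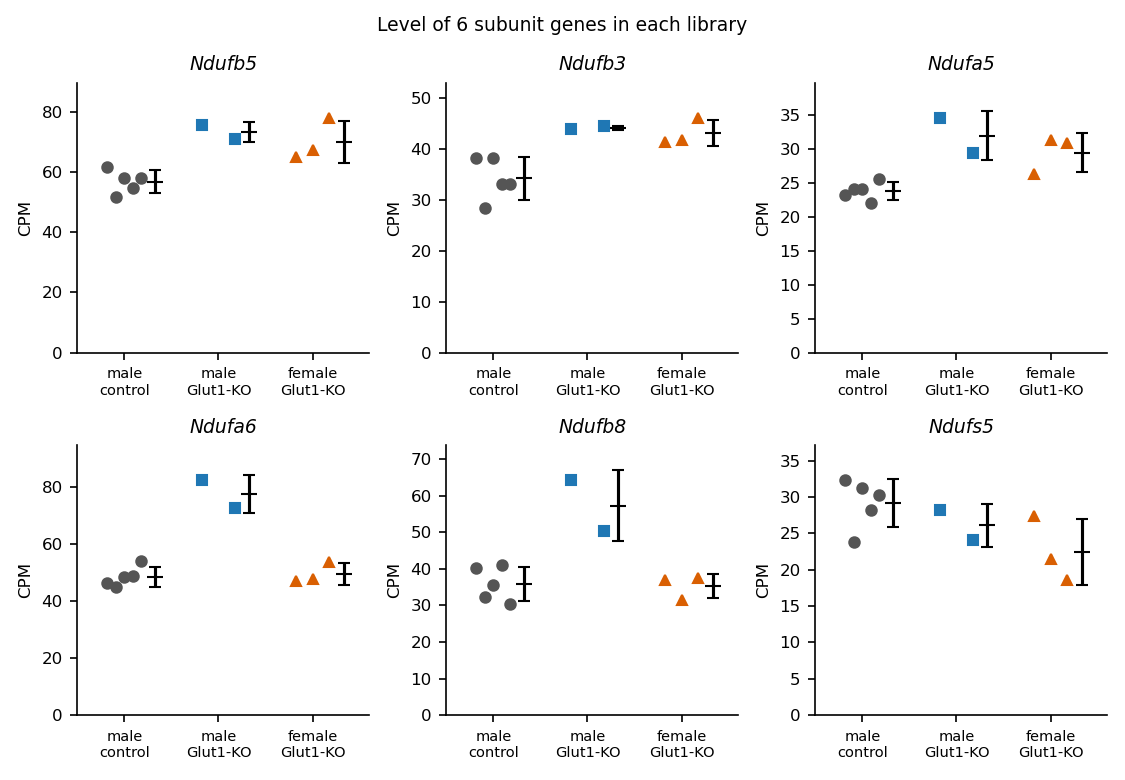
CPM (vertical axis, from 0) of 6 subunit genes, 1 point per library, for 5 male control, 2 male Glut1-KO and 3 female Glut1-KO libraries, with mean and SD beside the points. Ndufb5, Ndufb3 and Ndufa5 separate the groups, Ndufa6 and Ndufb8 are high in the 2 male Glut1-KO libraries alone, and Ndufs5 has its lowest library at 18.5 CPM in a female Glut1-KO.

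Ndufa4 measured 119, 155, 146, 139.9 and 164 CPM in the controls and 146, 173, 146, 159.5 and 195 CPM in the Glut1-KO libraries. The groups overlapped (0.18, SE 0.12, adjusted p = 0.757). Without Ndufa4 the median of the other 35 members was 0.18 as well. Per kilobase of transcript in the controls, which allows genes to be compared, Ndufa4 had the highest level of the members (237 ± 27.6 CPM per kb, length of the principal transcript). Ndufb2, a small distal subunit, had the lowest (4.08 ± 0.294 CPM per kb), beside a median of 52.5 over the members. The annotated principal transcript of Ndufb2 has 4371 bases, against a median of 892 over the members. With the union of all annotated exons as length, which is 5628 bases for Ndufb2, Ndufb2 stayed lowest and Ndufa2 came before Ndufa4. In CPM, Ndufb2 (17.8 ± 1.29) and Ndufb4, another distal subunit (17.5 ± 3.86), were alike in the controls. The lowest place of Ndufb2 thus rests on its long annotated length. Ndufb2 measured 19.1, 16.7, 16.3, 18.8 and 18.3 CPM in the controls and 17.5, 24.1, 20.996, 20.5 and 17.7 CPM in the Glut1-KO libraries, and the groups overlapped.

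The 2 male Glut1-KO libraries can be set against the 5 male controls without a difference in sex, although both carry one number that may mark a single mouse and neither had low Slc2a1. In this comparison 34 of 36 members were higher, against 48.9% of all genes tested, with a median of 0.30 beside -0.01. Of the members, 0 passed the adjusted threshold, against 0.0188% of all genes, while 11 were higher and 0 lower at an unadjusted p under 0.05, against 6.19% and 4.87% of all genes. The 11 became 7 without Glut1-KO replicate 4 and 5 without Glut1-KO replicate 5, where the lone male Glut1-KO library left is assumed to vary like the other groups. With each library corrected for transcript length and GC content it became 6, with 31 members higher and a median of 0.22. Both male Glut1-KO libraries exceeded all 5 controls in 17 members, against 8.54% of all genes. The highest of the 10 libraries was a male Glut1-KO in 22 members, against 23.0% of all genes.

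Ndufa6, Ndufb8 and Ndufb9 had large differences here and were chosen for naming after their values were seen. Ndufa6, a subunit at the matrix arm that binds the acyl carrier protein, measured 82.2 and 72.6 CPM in male Glut1-KO replicates 4 and 5. It measured 46.2, 44.8, 48.3, 48.6 and 54.0 CPM in the controls and 46.8, 47.8 and 53.8 CPM in the females. Both males stood above all other libraries, with a log2 fold change over the controls of 0.68 (95% interval 0.41 to 0.95, 1.60-fold, adjusted p = 0.149). Ndufb8, a distal subunit often used as a marker of assembled complex I, measured 64.3 and 50.4 CPM in the males, 40.2, 32.3, 35.7, 41.1 and 30.4 CPM in the controls and 37.0, 31.6 and 37.5 CPM in the females. The males again stood above the rest (0.67, adjusted p = 0.277). Ndufb9, a distal subunit of the LYR protein family, measured 92.7 and 83.2 CPM in the males, against 57.5 to 74.0 CPM in the controls and 64.7 to 68.0 CPM in the females (0.44, adjusted p = 0.322). By role, the male medians were 0.22 for the core, 0.35 for the matrix arm, 0.26 for the proximal and 0.38 for the distal membrane arm. The 2 members below 0 in the males were Ndufs5 (-0.16) and Ndufs4 (-0.10), an accessory subunit whose loss causes mitochondrial disease.

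The 3 female Glut1-KO libraries, set against the same 5 male controls, gave a median of 0.05 with 24 of 36 members higher, against 49.2% of all genes. With each library corrected for transcript length and GC content the median was 0.10 and 28 were higher. Without Glut1-KO replicate 1 the median was 0.004 with 18 of 36 higher, and without Glut1-KO replicate 2 it was 0.12 with 28 higher. Here sex and genotype cannot be told apart. Of the members, 0 passed the adjusted threshold, against 0.0691% of all genes. At an unadjusted p under 0.05, 4 members were higher and 1 (Ndufs5) was lower, against 7.67% and 6.97% of all genes. These 5 became 2 without control replicate 4, 3 without control replicate 5 and 0 without Glut1-KO replicate 3. All 3 females exceeded all controls in 3 members (Ndufa5, Ndufb3 and Ndufb5), against 4.16% of all genes, and lay below all controls in 0 members, against 5.41%. By role, the female medians were 0.01 for the core, 0.07 for the matrix arm, 0.05 for the proximal and 0.10 for the distal membrane arm. Since both comparisons share the 5 controls, their values are given side by side and their likeness is not read as a result. Ndufb5 had 0.37 in the males and 0.30 in the females. For Ndufb3 the values were 0.38 and 0.35, and for Ndufa5 they were 0.41 and 0.30. Ndufs7 differed in sign, with 0.31 and -0.31, as did Ndufv1 with 0.16 and -0.12.

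**Figure D4:**
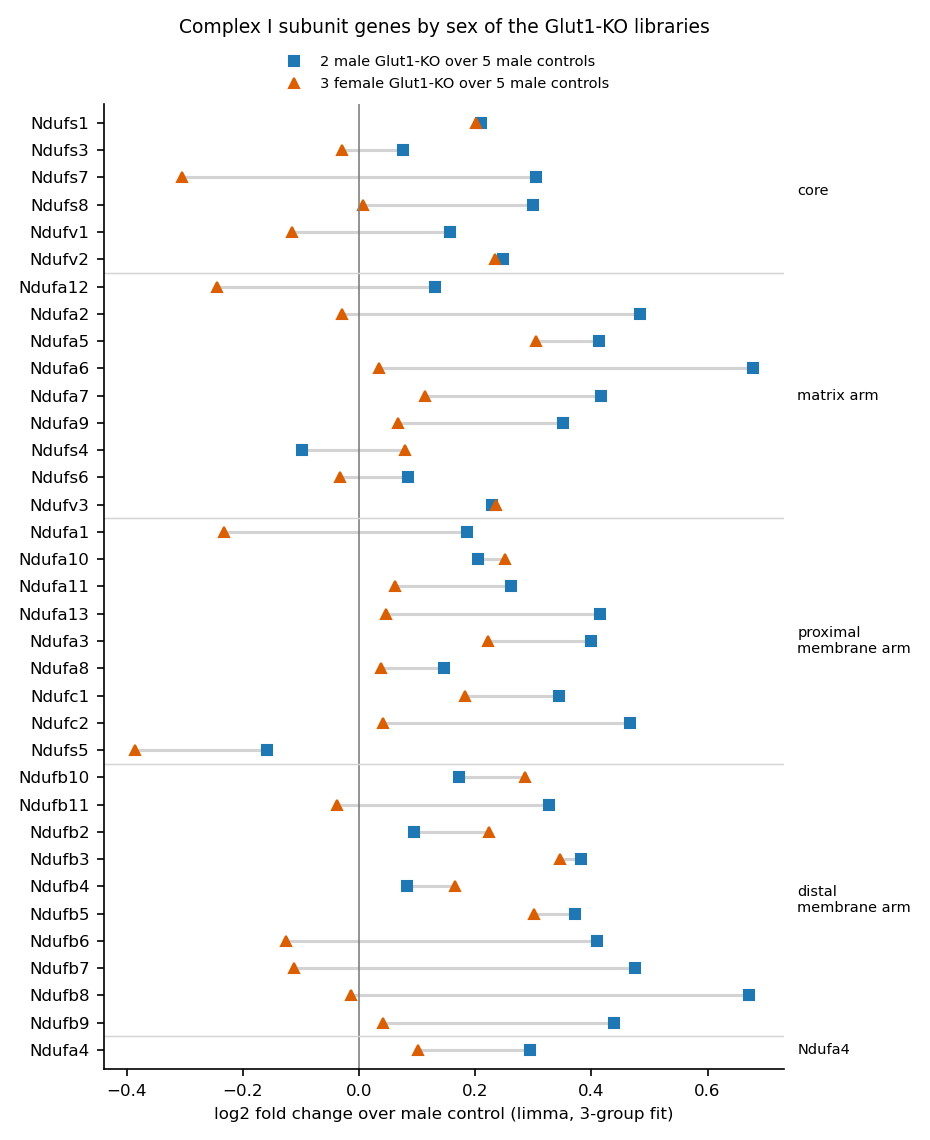
Log2 fold change over 5 male controls (horizontal axis, log2 scale) of 35 members, for 2 male (squares) and 3 female (triangles) Glut1-KO libraries, from limma. Squares lie right of 0 for 33 of them and triangles for 23, and the widest gaps belong to Ndufa6, Ndufb8 and Ndufs7.

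Compared directly, the female Glut1-KO libraries were lower than the male ones in 30 of 36 members, and higher in 6, against 51.0% of all genes higher, with a median of -0.20 beside 0.01 over all genes. Of the 8608 tested genes at or above the lowest member level in controls, 44.5% were higher, with a median of -0.06. At an unadjusted p under 0.05, 1178 of these 8608 were lower and 657 higher. In the group, male and female comparisons, 47.7%, 52.7% and 44.7% of the 8608 were higher. Of the members, 0 passed the adjusted threshold, against 0.0502% of all genes. At an unadjusted p under 0.05, 8 members were lower in females and 0 higher, against 9.89% and 8.68% of all genes. The 8 became 3 without Glut1-KO replicate 2 or 5, 5 without Glut1-KO replicate 3 and 12 without Glut1-KO replicate 1. Without replicate 5 the male group is 1 library, whose spread is taken from the other groups. The smallest adjusted p was 0.105, for Ndufa6 (-0.64, SE 0.13). Ndufb8 had -0.68 (adjusted p = 0.129) and Ndufs7 had -0.61 (adjusted p = 0.200). Both males exceeded all 3 females in 9 members, against 20.3% of all genes. With each library corrected for transcript length and GC content, the median was -0.06 and 15 members were higher in females.

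The Glut1-KO libraries also differed one by one. Members above all 5 controls numbered 18 in female replicate 1, against 14.2% of all genes tested, 6 in replicate 2 (19.0%) and 11 in replicate 3 (22.5%). In male replicates 4 and 5 they numbered 21 and 27, against 20.8% and 17.8% of all genes. Members below all controls numbered 0, 10 and 6 in female replicates 1, 2 and 3, against 14.0%, 22.4% and 22.0% of all genes. In male replicates 4 and 5 they numbered 0 and 1, against 20.8% and 18.7%. In replicate 2 the 6 members above were near the share of all genes, as were the 6 below in replicate 3. Across the 36 members, the deviation of replicate 2 from the control mean ran against the GC content of the transcripts (Spearman's rho -0.61 over 36 genes of one library, which are not independent), beside -0.22 over all genes tested. The other 9 libraries had values from -0.35 to 0.27. In replicate 2 the members with lower GC had a median deviation of 0.05 and those with higher GC of -0.21 on the log2 scale. The part of GC content in these results was not tested beyond the correction above, under which the group median was 0.18 and 29 members were higher.

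**Figure D5:**
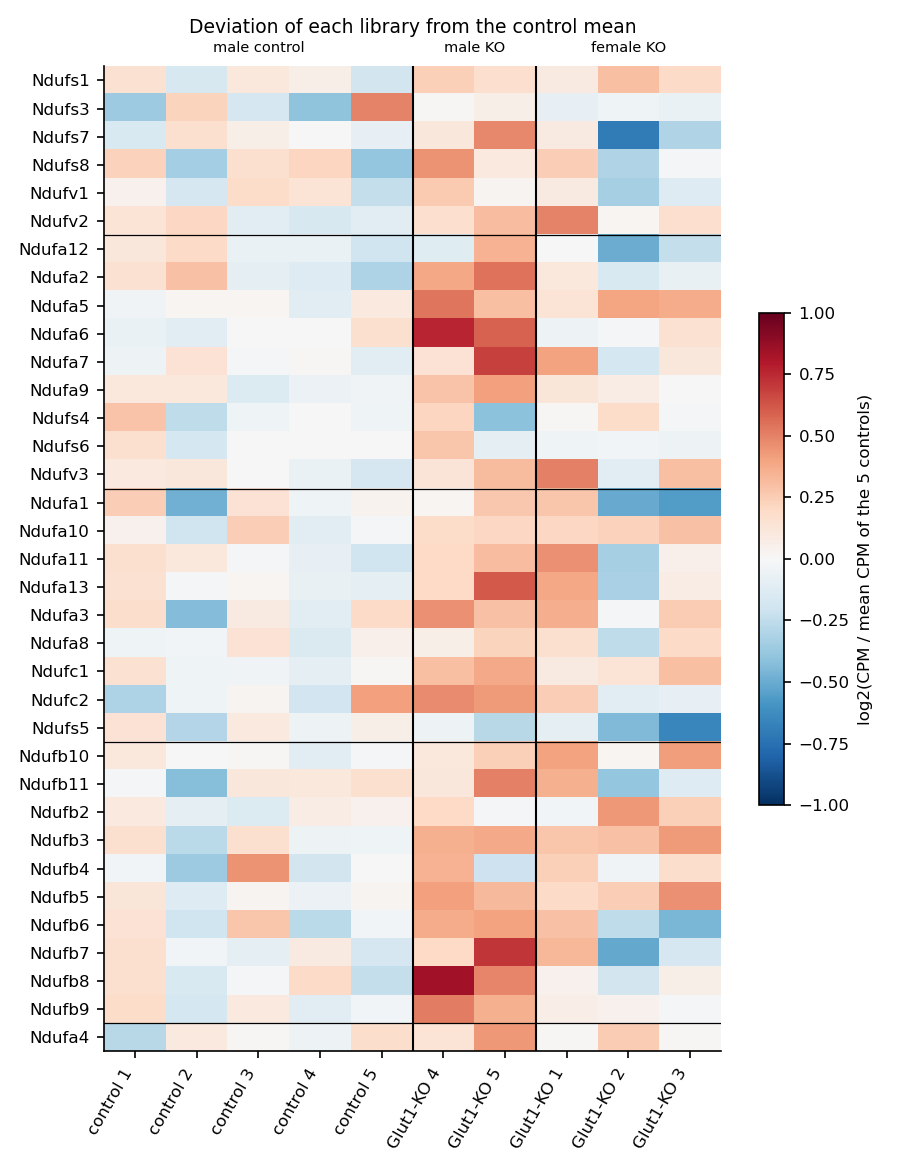
Deviation of each of the 10 libraries (columns) from the mean of the 5 controls for each of 35 members (rows), as log2 of the CPM ratio, red above and blue below the control mean. The 2 male Glut1-KO columns are mostly red, with 21 and 27 of all 36 members above every control (20.8% and 17.8% of all genes), and the column of female replicate 2 holds both colours, with 6 of all 36 above and 10 below every control (19.0% and 22.4% of all genes).

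Genes that act with complex I were read from lists. The name rule left out Ndufab1, the mitochondrial acyl carrier protein, which averaged 21.7 ± 2.03 CPM in controls and 23.5 ± 3.58 CPM in Glut1-KO libraries (0.10, adjusted p = 0.876). It also left out Ndufa4l2, a hypoxia-induced relative of Ndufa4, which was low at 0.943 ± 0.417 and 1.24 ± 0.668 CPM. Of 17 assembly factors tested, which build the complex and leave it, 8 were higher and 9 lower, with a median of -0.01. The 2 with the smallest p were Tmem126b (0.21, adjusted p = 0.691) and Acad9 (0.21, adjusted p = 0.738), both of the module that assembles the membrane arm. In no list of this paragraph did a gene pass in the group comparison.

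The other respiratory complexes gave group medians of 0.03 over 4 genes of complex II, 0.01 over 9 of complex III, 0.09 over 11 of complex IV and 0.09 over 16 of complex V. Sdhc, the membrane anchor of succinate dehydrogenase, had 0.34 (adjusted p = 0.624), and its catalytic partner Sdha had 0.06 (adjusted p = 0.923). Cyc1, cytochrome c1, had 0.22 (adjusted p = 0.730), and Uqcrfs1, the Rieske protein, had -0.12 (adjusted p = 0.792). Cox4i1 had 0.21 (adjusted p = 0.785) and Cox7a2 had 0.17 (adjusted p = 0.792), both subunits of cytochrome c oxidase. Atp5f1, a stalk subunit of ATP synthase, had 0.28 (adjusted p = 0.574), and Atp5g2, one of the genes for its ring, had 1.03 (adjusted p = 0.646) by limma and 0.68 by DESeq2. Atp5g2 was low in control replicates 2 and 3 (15.7 and 23.1 CPM), while the other controls held 83.3 to 89.0 CPM and the Glut1-KO libraries 87.7 to 108 CPM. For complex II the male median was 0.21 with 3 of 4 genes higher, and the female median was -0.01 with 2 of 4 higher. For complex III they were 0.21 with 8 of 9 and -0.10 with 3 of 9 higher. For complex IV they were 0.43 with 11 of 11 and -0.13 with 1 of 11 higher, and for complex V 0.18 with 12 of 16 and 0.07 with 11 of 16 higher. The 12 regulators of mitochondrial biogenesis had a median of 0.06, with Tfam, which maintains mitochondrial DNA, at -0.19 (adjusted p = 0.756) and Polrmt, its RNA polymerase, at -0.23 (adjusted p = 0.769).

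Other gene lists differed between the same libraries. The 12 genes of the early response to tissue dissociation (Fos, Jun, Egr1 and others) summed to 6061 to 8134 CPM in controls, 5703 to 6506 CPM in the females, and 4390 and 3907 CPM in male Glut1-KO replicates 4 and 5. In the group comparison all 12 were lower (median -0.39), 6 of them at an unadjusted p under 0.05, against 4.02% of all genes. All 12 were lower in the male comparison too (median -0.72). Of them 1, Dusp1, a phosphatase gene, passed (-1.03, adjusted p = 0.042), against 0.0188% of all genes. Markers of ciliated cells, which are rich in mitochondria, summed to 10.005 to 248.9 CPM in controls and 13.6 to 55.8 CPM in Glut1-KO libraries. Control replicate 5 held the highest sum, and the other controls had at most 95.7 CPM. In the group comparison 7 of 7 were lower (median -1.18), as were 7 of 7 in the male one (median -2.18). At an unadjusted p under 0.05, 0 were lower in either comparison, against 4.02% and 4.87% of all genes. Cardiomyocyte markers summed to 4.1 to 37.6 CPM in controls and 5.6 to 18.4 CPM in Glut1-KO libraries, with Nppa at 0 throughout, and brown adipocyte markers summed to at most 2.03 CPM in any library. The sum over 11 leukocyte markers was 307 to 462 CPM in controls and 336 to 584 CPM in Glut1-KO libraries. Of the 10 tested, 9 were higher (median 0.92), 6 of them at an unadjusted p under 0.05, against 3.66% of all genes. The sum over 8 endothelial markers was 100.2 to 371 CPM in controls and 156 to 514 CPM in Glut1-KO libraries, with 8 of 8 higher (median 0.65). In the male comparison 4 of these 8 were higher (median 0.04), and in the female one 8 (median 0.93). Higher at an unadjusted p under 0.05 were 1, 0 and 5 in the group, male and female comparisons (3.66%, 6.19% and 7.67% of all genes). Of 8 proliferation genes, 7 were lower in the group comparison (median -0.18) and 8 in the male one (median -0.48). In both, 0 were lower at an unadjusted p under 0.05, against 4.02% and 4.87% of all genes. In the female against male comparison all 8 were higher (median 0.51), 1 of them at an unadjusted p under 0.05, against 8.68% of all genes. Higher there too were 7 of 7 ciliated (median 1.57), 10 of 10 leukocyte (median 0.38) and 8 of 8 endothelial markers (median 0.93). Of these, 0, 1 and 0 were higher at an unadjusted p under 0.05, against 8.68% of all genes. Of the 12 dissociation genes, 9 were higher and 3 lower there (median 0.45). At an unadjusted p under 0.05, 5 were higher and 1 lower, against 8.68% and 9.89% of all genes. Of the 9 epithelial markers, 6 were higher in the male comparison (median 0.33), and 5 were lower in the female against male one (median -0.58). All 5 were lower at an unadjusted p under 0.05, against 9.89% of all genes. Of 5 club cell markers, 4 were lower in the group (median -0.67) and male (median -1.46) comparisons. In the female against male one 4 were higher (median 0.71). Of these, 0 had an unadjusted p under 0.05 in any of the comparisons, against 4.02%, 4.87% and 8.68% of all genes in these directions. Of 6 fibroblast markers, 5 were lower in the group comparison (median -0.20). In the male comparison 4 were higher (median 0.61), and in the female against male one 4 were lower (median -0.79). In these directions 0 had an unadjusted p under 0.05, against 4.02%, 6.19% and 9.89% of all genes. In the last comparison 1 fibroblast marker was higher at that p, against 8.68%. Erythroid markers were higher in 5 of 5 in the male comparison (median 0.24). They were lower in 5 of 5 in the female against male one (median -1.49). With an unadjusted p under 0.05 these numbered 0 and 1, against 6.19% and 9.89% of all genes. The part of these in the members' values was not tested.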

How the data were processed

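Per the study's methods and the labels, the authors made stranded polyadenylated RNA libraries, sequenced them as single-end reads and aligned them to mm10 with HISAT2. The submitters' processing notes name featureCounts 1.4.4 and Cutadapt 1.4.2. The annotation release and the strand setting of the counting are not given in the sources used here. The deposited tables hold raw read counts per Ensembl gene, and the 10 single files equalled the combined table. A deposited table of log2 values was not used.

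Members and lists were chosen with earlier results of these data known. Values in every library are given for the 10 members with the smallest unadjusted limma p, the highest and lowest per kilobase, those on chromosome X and Ndufa4, with group means for the core, of which 1 is not reported here. Outside the members, the 2 genes with the smallest p of each pathway list are named.

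Counts were filtered (edgeR 4.0.16 filterByExpr, minimum count 10, minimum total 15), scaled by TMM, transformed by voom and fitted with limma 3.58.1 in R 4.3.3, with the group as the only term. A second fit used male control, male Glut1-KO and female Glut1-KO as groups. The Benjamini-Hochberg adjustment covered all 15922 genes. DESeq2 1.42.0, the edgeR quasi-likelihood test, other scalings, filters, covariates and subsets were the alternatives. The limma, edgeR and DESeq2 tests were run on simulated data. A limit on the share of false calls was required there of limma and edgeR, not of DESeq2. Lengths, GC content and overlaps came from GENCODE M21 (GRCm38), in which all 36 members were found. Levels per kilobase used the principal transcript, or the union of exons for the 2 members without one.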

Additional observations from a re-analysis of the deposited data

Results flagged for a closer look

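Among the 86 groups of 5 values examined for a library far from the rest, 2 stood out, and chance alone sets apart about 1 group in 20. Ndufs6, a zinc-binding accessory subunit of the matrix arm, measured 36.01 CPM in Glut1-KO replicate 4, a male library, whereas the other 4 Glut1-KO libraries lay between 27.8 and 29.2 CPM. The gap to the nearest library was 0.831 of the whole range, above the limit of 0.71. Control replicate 2 had a total of 49.8 M counts, against 40.1 to 41.4 M in the other 4 controls (0.863 of the range). It was the library with the lowest level in 10 of the 36 members. Ndufs6 was named after its values were seen.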

How the results depend on the processing

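The count of 0 members past the threshold in the group comparison was obtained under every alternative run except the DESeq2 Wald test, which gave 2 of 36 (and 215 genes in all). The members' median of 0.18 was positive throughout, but it was 0.06 with the male Glut1-KO libraries left out and 0.30 with sex as covariate or male libraries only. Leaving out single libraries gave 0.13 (without Glut1-KO replicate 5) to 0.23 (without Glut1-KO replicate 2). In the female comparison the same step gave 0.004 (without Glut1-KO replicate 1) to 0.12 (without Glut1-KO replicate 2). Library totals in place of TMM put the median of all genes at 0.11 (from 0.01) in the female against male comparison, where the members' median was then -0.10, and gave 0.09 in the female comparison. Members at an unadjusted p under 0.05 numbered 6 in the main fit of the group comparison. There they numbered 3 with counts summed by name number or with no filter on low counts, 4 with the replicate block and 9 with sample quality weights. They numbered 7 with library totals and 6 with length and GC corrected in the male comparison, and 3 and 4 in the female against male one. The shares of all genes at that p under these settings are not given here. The replicate block gave a median of 0.18, 30 members higher and 0 past the threshold. Control and Glut1-KO libraries of the same replicate number correlated by -0.132 to 0.197 in their deviations. Of the 5 controls, 1 correlated best with its own replicate number, so the replicate numbers show no pairing. Whether libraries that share a name number deviate together was not tested.

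Single genes were followed through the alternatives for 23 of the 36 members and for Slc2a1 only. Among these some directions turned, mostly of values near 0 but also that of Ndufb8 (0.25 in the group comparison) and of Slc2a1 (-0.62). With the male Glut1-KO libraries left out, 24 of all 36 members were higher, against 31 in the main fit. Among the 23 members, those that turned to negative there were Ndufb8 (-0.0072), Ndufb11 (-0.032), Ndufs6 (-0.026) and Ndufs3 (-0.024). With sex as covariate and with male libraries only, Ndufs7 had 0.31 and 0.30, Ndufa1 0.19 in both, Ndufv1 0.16 and 0.15, and Slc2a1 0.061 and 0.060. Outside the 23 members, Ndufa12 turned from -0.10 in the group comparison to 0.13 in the male one. Ndufs4 turned from 0.01 to -0.10. Ndufs6 had -0.013 with sample quality weights and -0.017 with length and GC corrected. Ndufs3 had -0.023 by edgeR and -0.019 by DESeq2, -0.0017 with the replicate block and -0.0085 with length and GC corrected. Ndufv1 had 0.00050 with upper-quartile factors and 0.0015 by DESeq2. Without single libraries the ranges were -0.20 to 0.10 for Ndufs7, -0.19 to 0.050 for Ndufa1, -0.047 to 0.053 for Ndufs6, -0.077 to 0.14 for Ndufs3 and -0.076 to 0.072 for Ndufv1. They were wide but positive for Ndufb11 (0.0035 to 0.23), Ndufs8 (0.033 to 0.22), Ndufa4 (0.11 to 0.23) and Ndufb8 (0.12 to 0.36). Ndufb5, Ndufb3 and Ndufa5 were positive throughout, with lowest values of 0.30, 0.29 and 0.30. The cause of these changes was not tested. The corrections for length and GC in the comparison of 3 groups, the median without Ndufa4 and the union length were added after seeing the data. The median SE of a member was 0.15 on the log2 scale in the group comparison, which sets its precision.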
